A study of Spodoptera frugiperda with 6 samples.

Results

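Described here are 5 miRNAs known from the neurons, glia or sense organs of insects, in larvae of the fall armyworm *Spodoptera frugiperda*, namely bmo-miR-276-5p, bmo-miR-9a-5p, bmo-miR-274-5p, bmo-miR-282-5p and sfr-miR-7-5p. They were taken by their miRBase names from the table of mature miRNA counts, where they make up 9 of 172 entries. Copies of a mature sequence carried identical counts and were taken once, which leaves 5 of 128 distinct mature sequences. Small RNA came from whole larvae of an insecticide-resistant strain and from a susceptible colony of a commercial supplier, which tolerated and did not tolerate the diamide chlorantraniliprole, respectively. Each strain has 3 biological replicates, each a pool of 100 larvae aged 3 to 5 days, and both strains were reared on artificial diet. The samples carry no tissue beyond the whole animal and no insecticide exposure in their labels, and they are grouped here by those strain labels. Under these labels the miRNAs that the study lists as differing between its strains have signs opposite to its list, and the data cannot show which is right. The labels do match the study's own summary of its libraries, which gives each library the same number of expressed miRNAs. Resistant and susceptible therefore mean the libraries so labelled throughout, and if the labels were exchanged each direction between strains would turn round. The libraries held 540739 to 1288083 counts with copies included, and 166 to 171 of the 172 entries had at least 1 count in a library. Per library, 2.22% to 4.72% of mapped reads were counts of distinct mature sequences where the label is resistant, and 5.26% to 6.94% where it is susceptible, which bears on the direction of the strain comparison.

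A miRNA is cut from a hairpin-shaped precursor as a short RNA that guides an Argonaute protein to messenger RNAs. Pairing rests mainly on the seed, the bases from position 2 to position 8, and usually lowers the amount or the translation of the target. The roles of these 5 miRNAs are known from the fruit fly *Drosophila melanogaster* rather than from *S. frugiperda*. There miR-9a keeps the number of sense organ precursor cells in check by repressing the proneural factor Senseless, and miR-7 acts in photoreceptor differentiation by repressing Yan. miR-276 acts in the fly brain on a dopamine receptor needed for olfactory memory. miR-274 is released by glia of the fly and reaches neurons and tracheal cells, where it represses Sprouty. miR-282 has been linked in the fly to rutabaga, the adenylyl cyclase gene of learning. None of the 5 is limited to nervous tissue in all insects, and a whole larva also holds muscle, gut, fat body and epidermis.

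The mature sequences are shown because the seed, in capitals, is what separates these miRNAs from one another. They are written 5′ to 3′ as listed in the study's supplementary sequence tables.
bmo-miR-276-5p: uAGGAACUucauaccgugcucu
bmo-miR-9a-5p: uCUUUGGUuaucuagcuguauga
bmo-miR-274-5p: uUUGUGACcgucacuaacgggca
bmo-miR-282-5p: uAGCCUCUccuuggcuuugucu
sfr-miR-7-5p: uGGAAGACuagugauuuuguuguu
Each of the 5 has a seed of its own, and no other sequence among the 128 shares one of these seeds. The nearest sequence of the table was 9 or 10 edits away from each member, so reads of these miRNAs had no near-identical partner among the entries. All 5 begin with U, as did 56 of the 128 sequences (43.8%). bmo-miR-276-5p and bmo-miR-282-5p are 22 nt long, bmo-miR-9a-5p and bmo-miR-274-5p 23 nt, and sfr-miR-7-5p 24 nt. Their GC content ranged from 33.3% in sfr-miR-7-5p to 52.2% in bmo-miR-274-5p, around the median of 45.5% over all 128 sequences.

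The 9 entries fall at 8 places in the genome assembly ZJU_Sfru_1.0, with coordinates as the deposited table gives them. The genes that hold or flank these places were not analysed here. sfr-miR-7-5p (Spodoptera_mature_168) and bmo-miR-282-5p (Spodoptera_mature_107) have 1 precursor each, at NC_049717.1:16582473-16582531 and NC_049737.1:7845273-7845336, both on the minus strand. In both precursors the mature sequence starts at the first base. RNAfold gave minimum free energies of -17.4 kcal/mol for the 59 nt precursor of sfr-miR-7-5p and -27.9 kcal/mol for the 64 nt precursor of bmo-miR-282-5p.

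bmo-miR-9a-5p is listed with 2 precursors, yet both contain the same mature molecule at the same place. The windows run from 18448369 to 18448427 (Spodoptera_mature_79) and from 18448327 to 18448391 (Spodoptera_mature_169) on the plus strand of NC_049711.1 and share 23 nt, which are the mature sequence at 18448369 to 18448391. The precursors are shown with the mature part in capitals, since that part opens the first window and closes the second.
bmo-miR-9a-5p, Spodoptera_mature_79: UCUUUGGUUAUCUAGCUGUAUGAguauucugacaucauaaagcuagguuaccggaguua
bmo-miR-9a-5p, Spodoptera_mature_169: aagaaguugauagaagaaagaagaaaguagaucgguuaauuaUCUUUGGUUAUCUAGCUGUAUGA
The window that starts with the mature sequence folded to -24.3 kcal/mol with 20 of its 23 mature bases paired. The window that ends with it folded to -6.1 kcal/mol with 14 mature bases paired. The doubled entry of bmo-miR-9a-5p is therefore 1 place in the assembly.

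bmo-miR-276-5p and bmo-miR-274-5p have copies at separate places. The precursors of bmo-miR-276-5p lie at NC_049726.1:984613-984669 on the plus strand (Spodoptera_mature_73) and at NC_049726.1:1316123-1316179 on the minus strand (Spodoptera_mature_74), with starts 331.5 kb apart, and are identical over their 57 nt. Its sequence is shown, mature part in capitals, because the mature molecule lies at positions 36 to 57, on the 3′ arm, while the name ends in 5p.
bmo-miR-276-5p, Spodoptera_mature_73 and Spodoptera_mature_74: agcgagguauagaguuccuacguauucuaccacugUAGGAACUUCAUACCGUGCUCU
Such names are common in the table, where 33 of the 61 distinct sequences named 5p lie on the 3′ arm of their listed precursor and 2 sequences named 3p lie on the 5′ arm. The counts of bmo-miR-276-5p belong to the sequence printed here, whatever arm its name states. The other 4 members have their mature sequence on the 5′ arm in at least 1 listed precursor.

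The 3 precursors of bmo-miR-274-5p lie on the minus strand of NC_049723.1, at 6740981 to 6741039 (Spodoptera_mature_87), 7760138 to 7760196 (Spodoptera_mature_85) and 8852106 to 8852164 (Spodoptera_mature_86). Spodoptera_mature_86 and Spodoptera_mature_87 are identical over 59 nt, and Spodoptera_mature_85 differs from both by A29U, counted from 1 at the 5′ end of the precursor with the base of Spodoptera_mature_85 first. The precursors are shown with the mature part in capitals, since the change lies in the loop and leaves the mature sequence alike in every copy.
bmo-miR-274-5p, Spodoptera_mature_85: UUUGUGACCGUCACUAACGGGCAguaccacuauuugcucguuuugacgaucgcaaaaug
bmo-miR-274-5p, Spodoptera_mature_86 and Spodoptera_mature_87: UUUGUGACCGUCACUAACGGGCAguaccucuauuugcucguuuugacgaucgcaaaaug
Every copy has a precursor of bmo-miR-252-5p on the same strand, with 15.1, 16.1 and 15.1 kb between them in the order of the positions above. Neither strain's counts can be divided among these copies, because reads of a shared mature sequence were counted in full for each. Apart from the overlapping windows of bmo-miR-9a-5p, no precursor of the other 4 members had another listed precursor within 20 kb.

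**Figure D1:**
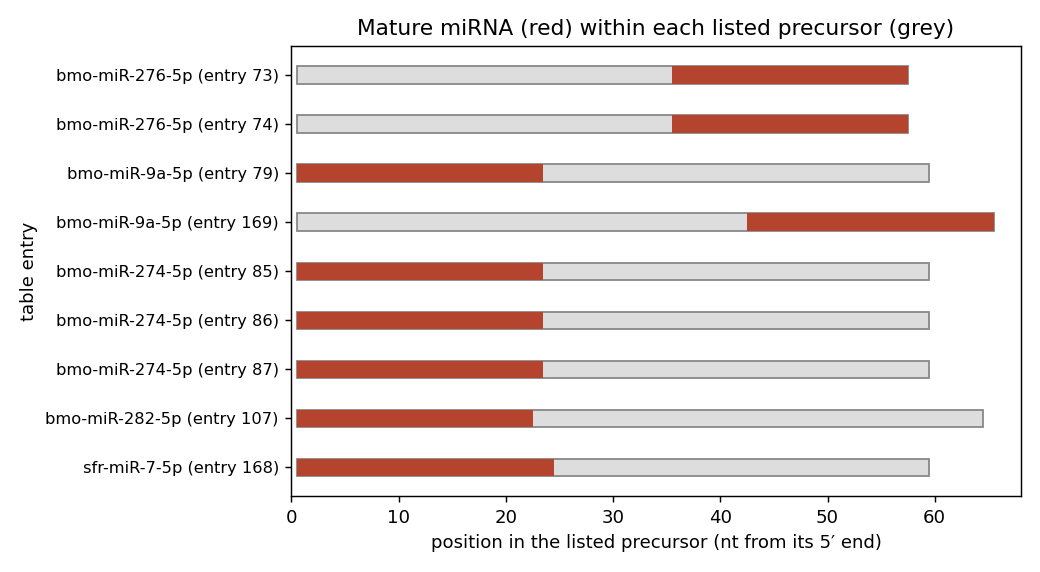
Position of the mature miRNA (red) in each of the 9 listed precursors (grey bars), in nt from the 5′ end of the precursor, with 1 row per table entry. The mature sequence opens the precursor in 6 entries and closes it in the 2 entries of bmo-miR-276-5p and in entry 169 of bmo-miR-9a-5p.

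Abundance is given as CPM, the counts of a sequence per 1000000 counts of its library over all table entries. Differences in level between miRNAs also carry the ligation efficiency of each sequence, which was not tested. bmo-miR-276-5p, the most abundant of the group, had 28931, 33069 and 36818 CPM in resistant replicates 1, 2 and 3 and 24460, 25879 and 29096 CPM in susceptible replicates 1, 2 and 3. Resistant replicate 1 lay just below susceptible replicate 3, so the strains overlapped. bmo-miR-9a-5p had 12498, 14233 and 13267 CPM in the resistant libraries and 8904, 9589 and 9620 CPM in the susceptible libraries. All 3 resistant libraries lay above all 3 susceptible libraries, with 2878 CPM between the nearest pair. bmo-miR-274-5p had 5447, 5164 and 5596 CPM in the resistant libraries and 3746, 4375 and 4059 CPM in the susceptible libraries. Here too the strains did not overlap, and the nearest pair lay 789 CPM apart.

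bmo-miR-282-5p and sfr-miR-7-5p were scarcer. bmo-miR-282-5p had 1245, 1250 and 1777 CPM in the resistant libraries and 940, 895 and 706 CPM in the susceptible libraries, from 627 to 1604 counts. The strains did not overlap, and resistant replicate 3 stood above the other 2 of its strain. sfr-miR-7-5p had 31.1, 36.7 and 18.5 CPM in the resistant libraries and 17.2, 13.6 and 14.6 CPM in the susceptible libraries. These values rest on 40, 21 and 10 counts and on 17, 16 and 13 counts. The 95% counting intervals (exact binomial) of sfr-miR-7-5p were 22.2 to 42.3, 22.7 to 56.0 and 8.87 to 34.0 CPM in the resistant libraries and 10.04 to 27.6, 7.80 to 22.1 and 7.79 to 25.02 CPM in the susceptible libraries. The lowest resistant library exceeded the highest susceptible library by 1.26 CPM, far less than the width of either interval. The reads carry no molecular identifiers, so all such intervals cover counting error only.

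**Figure D2:**
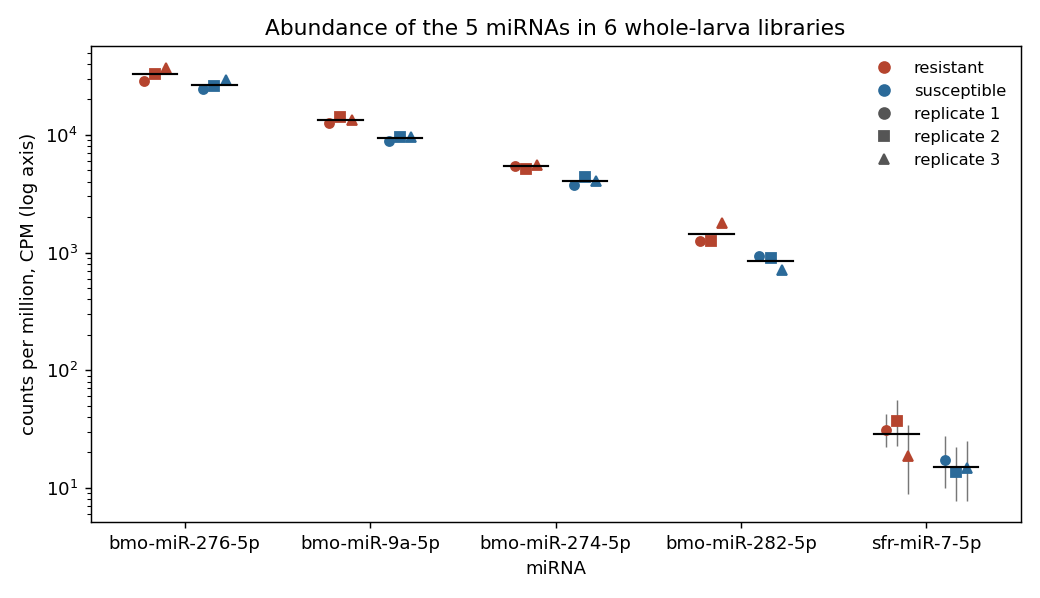
CPM (log axis) of the 5 miRNAs in the 3 resistant (red) and 3 susceptible (blue) libraries, with the replicate shown by marker shape, the strain mean by a black line and the exact 95% binomial interval by a grey bar, hidden by the marker where narrow. The levels span from 13.6 CPM of sfr-miR-7-5p to 36818 CPM of bmo-miR-276-5p, and the strains overlap in bmo-miR-276-5p alone.

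The order bmo-miR-276-5p, bmo-miR-9a-5p, bmo-miR-274-5p, bmo-miR-282-5p, sfr-miR-7-5p was the same in all 6 libraries, and no 2 members overlapped in level. By mean CPM over the 6 libraries, bmo-miR-276-5p ranked 9 of the 128 distinct sequences (7 to 9 in single libraries) and bmo-miR-9a-5p ranked 12 (11 to 14). bmo-miR-274-5p ranked 19 (16 to 20), bmo-miR-282-5p ranked 35 (30 to 39) and sfr-miR-7-5p ranked 98 (85 to 106). Among all 172 entries, copies included, the ranks ran from 9 to 11, 14 to 17, 20 to 25, 42 to 58 and 119 to 145 in the same order. The first 4 thus lay above the median sequence, at 116 CPM, and sfr-miR-7-5p lay below it. The 5 together held 6.62%, 7.33% and 8.005% of the distinct counts in the resistant libraries and 5.25%, 5.50% and 5.92% in the susceptible libraries, of which bmo-miR-276-5p alone gave 60.1% to 66.9%.

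**Figure D3:**
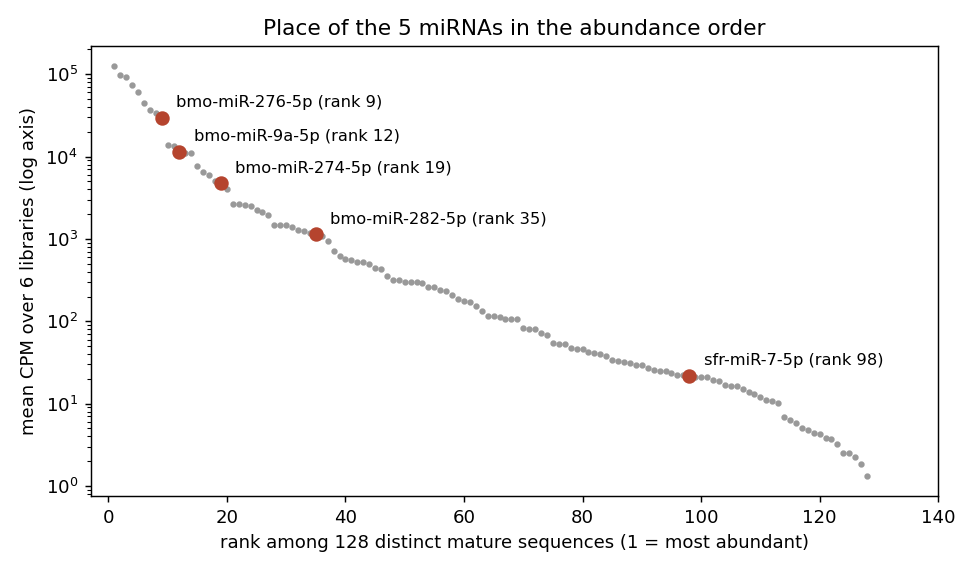
Mean CPM over the 6 libraries (log axis) against rank for the 128 distinct mature sequences (grey points), with the 5 miRNAs in red. sfr-miR-7-5p lies at rank 98, and the others lie in the upper part of the curve, at ranks 9, 12, 19 and 35.

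The order among neighbours in rank often differed between the strains. bmo-miR-276-5p lay above the next sequence, sfr-miR-14-5p (13721 CPM on average), in 6 of 6 libraries, and below bmo-miR-263a-5p (34262 CPM), which guards fly sense organ bristles from cell death, in 5 of 6. bmo-miR-9a-5p exceeded bmo-miR-278-5p in all 3 resistant libraries, where the latter had 9827 to 10586 CPM, and in 0 of 3 susceptible libraries, where it had 10806 to 12915 CPM. Against sfr-miR-2c-5p just above it, bmo-miR-9a-5p was higher in 1 of 3 resistant and 0 of 3 susceptible libraries. bmo-miR-282-5p likewise exceeded both bmo-miR-283-5p and sfr-miR-10465-5p (Spodoptera_mature_101) in 3 of 3 resistant and in 0 of 3 susceptible libraries. bmo-miR-283-5p had 725 to 1015 CPM in the resistant and 1225 to 1608 CPM in the susceptible libraries. bmo-miR-274-5p exceeded bmo-miR-279a in 2 of 3 resistant and 0 of 3 susceptible libraries, and sfr-miR-279a-5p in 1 of 3 and 3 of 3. sfr-miR-7-5p sat between bmo-miR-137 (22.1 CPM) and sfr-miR-210-5p (21.3 CPM), both also known from neurons or photoreceptors, and exceeded each in 2 of 3 resistant and 0 of 3 susceptible libraries. It equalled bmo-miR-137 in 1 susceptible library and sfr-miR-210-5p in 1 resistant library. These orders were not tested.

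The members differed in how far the replicates of a strain lay apart. bmo-miR-9a-5p averaged 13333 ± 869 CPM over the resistant and 9371 ± 404 CPM over the susceptible libraries (SD, n = 3 each), with coefficients of variation of 6.52% and 4.32%. For bmo-miR-274-5p the means were 5402 ± 219 and 4060 ± 314 CPM (SD, n = 3 each), or 4.06% and 7.74%. bmo-miR-276-5p varied by 11.98% and 8.97% around 32940 ± 3945 and 26478 ± 2375 CPM (SD, n = 3 each). bmo-miR-282-5p varied more, by 21.5% and 14.7% around 1424 ± 306 and 847 ± 124 CPM (SD, n = 3 each), whereas counting alone gives 3.15% and 3.45% at its depth. sfr-miR-7-5p varied by 32.4% and 12.2% around 28.7 ± 9.30 and 15.2 ± 1.86 CPM (SD, n = 3 each), where counting alone gives 23.1% and 25.7%. Its spread was thus of the size that counting gives, and its susceptible replicates lay closer together than that. On the log2 scale, after scaling of the libraries, the median SD of the 5 was 0.12 in the resistant and 0.08 in the susceptible libraries, beside 0.26 and 0.16 over the 112 distinct sequences tested, many of which were scarcer.

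The strain comparison asked whether these miRNAs differ between larvae of the resistant and susceptible strains. All 5 were higher in the libraries labelled resistant, by 1.22-fold to 1.91-fold, when libraries were scaled by TMM (the trimmed mean of M-values, which takes the bulk of the sequences as equal). Counts were fitted with edgeR's quasi-likelihood test over 152 entries and p was adjusted by Benjamini-Hochberg. At an adjusted p under 0.05, 5 of 5 members passed, where 35.7% of the 112 distinct sequences tested passed in either direction and 21.4% were higher. In CPM, without TMM scaling, the strains did not overlap, with resistant above, in 4 of 5 members and in 26.8% of all sequences tested. Division by the TMM factors (1.065 for resistant replicate 3, 0.935 for susceptible replicate 1) turns round the nearest pair of sfr-miR-7-5p, which then overlaps. It also turns round the nearest pair of bmo-miR-276-5p (0.983 for resistant replicate 1, 1.029 for susceptible replicate 3), which then does not. None of the 5 passed the study's added limit of a 2-fold change in edgeR or in DESeq2, while 10.7% of all sequences tested did. The median log2 fold change was 0.49 over the 5 and 0.03 over all 112. Because the 5 were chosen with earlier results of these data known, these contrasts with all sequences are descriptions and no independent test.

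bmo-miR-9a-5p, a sense organ miRNA of the fly, rose 1.40-fold, with a log2 fold change of 0.49 (standard error 0.09, 95% interval 0.28 to 0.69, edgeR adjusted p = 0.00459). bmo-miR-274-5p, the glial miRNA of the fly, rose 1.31-fold, with a log2 fold change of 0.39 (standard error 0.09, 95% interval 0.18 to 0.60, edgeR adjusted p = 0.0131). bmo-miR-282-5p rose 1.63-fold, with a log2 fold change of 0.71 (standard error 0.17, 95% interval 0.33 to 1.08, edgeR adjusted p = 0.0126). Whichever single library was left out, these 3 still passed the test, which was not so for the other 2 members.

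bmo-miR-276-5p, the miRNA of olfactory memory in the fly, rose 1.22-fold, or 0.29 on the log2 scale (standard error 0.09, 95% interval 0.08 to 0.50, edgeR adjusted p = 0.043). It no longer passed without resistant replicate 2 (adjusted p = 0.107), resistant replicate 3 (0.0959), susceptible replicate 1 (0.095) or susceptible replicate 2 (0.0974). sfr-miR-7-5p, a photoreceptor miRNA of the fly, had the widest interval of the 5, around 0.93 on the log2 scale (standard error 0.31, 95% interval 0.24 to 1.62), or 1.91-fold (edgeR, adjusted p = 0.0461). It passed without resistant replicate 3 (log2 fold change 1.14, past the 2-fold limit, adjusted p = 0.0143) and lost the call without any of the other 5 libraries, where the adjusted p ran from 0.0541 to 0.17. DESeq2 gave adjusted p of 0.0754 for bmo-miR-276-5p and 0.0717 for sfr-miR-7-5p.

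The direction of these differences depends on the scale against which the libraries are read. With library sizes set to the mapped reads, the log2 fold change was -0.42 for bmo-miR-276-5p, -0.23 for bmo-miR-9a-5p and -0.29 for bmo-miR-274-5p, while it was 0.013 for bmo-miR-282-5p and 0.19 for sfr-miR-7-5p. None of the 5 then passed in edgeR, either at an adjusted or at an unadjusted p under 0.05. This scaling moved the median log2 fold change of all sequences tested from 0.03 to -0.66, and upper-quartile factors moved it to -0.14, with 2 of 5 members passing. Among all sequences called, 24 were higher and 16 lower with TMM, 11 and 22 with upper-quartile factors, and 3 and 29 with mapped reads. A scaling moves all sequences almost alike, so distances to the median of all sequences change little between the 5 scalings by construction. bmo-miR-276-5p lay 0.24 to 0.26 above it, bmo-miR-9a-5p 0.43 to 0.46, bmo-miR-274-5p 0.35 to 0.37, bmo-miR-282-5p 0.67 to 0.70 and sfr-miR-7-5p 0.85 to 0.90. The rise of the 5 in the libraries labelled resistant is relative to the other sequences of the table, and no change per mapped read passed a test. In RNA of whole larvae, fewer cells of a type and less RNA per cell cannot be told apart.

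**Figure D4:**
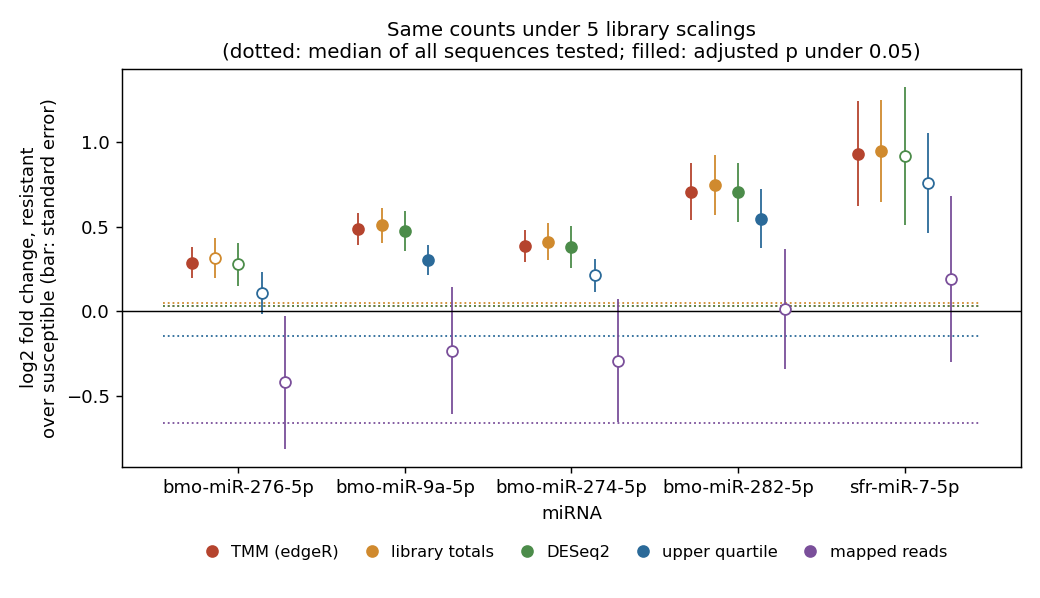
Log2 fold change (resistant over susceptible, bars for the standard error) of the 5 miRNAs from the same counts under 5 library scalings, with the median of all sequences tested as a dotted line per scaling. Every member lies above the dotted line of its scaling, and with mapped reads 3 of the 5 lie below 0.

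Beside the 5 stand 9 other miRNAs known from insect nerves and sense organs. Of these 1 rose, none fell and 8 did not pass, with a median log2 fold change of -0.02, where 35.7% of all sequences tested passed and 21.4% rose. Whether the list differs from all sequences was not tested. The one that rose was bmo-miR-932 (log2 fold change 0.84, standard error 0.29, edgeR adjusted p = 0.0468), which has been linked to memory in honey bees. bmo-miR-263a-5p and bmo-miR-263b-5p, the bristle-guarding miRNAs, had log2 fold changes of -0.34 (adjusted p = 0.175) and -0.36 (adjusted p = 0.298). bmo-miR-87, which acts in regrowth of fly sensory dendrites, and bmo-miR-34-5p, known from ageing of the fly brain, had 0.16 (adjusted p = 0.45) and 0.19 (adjusted p = 0.408). bmo-miR-137 had 0.49 (adjusted p = 0.181) and sfr-miR-210-5p, a photoreceptor miRNA of the fly, had -0.62 (adjusted p = 0.181). Whether the 5 differ from these 9 as groups was not tested. The list of 9 is not exhaustive and was chosen with earlier results of these data known. It leaves out the miR-279 family, of which sfr-miR-279a-5p rose (log2 fold change 0.71, edgeR adjusted p = 0.00686). sfr-miR-279c-5p, sfr-miR-279b-5p and bmo-miR-279a, at 0.31, 0.28 and 0.09, did not pass.

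The libraries are labelled as whole larvae, and miRNAs of neurons and muscle were looked up in them, of which none was at 0 in a library. This shows only that RNA of both tissues was present and is no test of the labelled source. bmo-miR-124, the neuronal miRNA of animals from flies to mammals, averaged 52.4 ± 13.4 CPM over the resistant and 53.3 ± 5.24 CPM over the susceptible libraries (SD, n = 3 per strain). Its log2 fold change was -0.02 (95% interval -0.54 to 0.51, edgeR adjusted p = 0.981). bmo-miR-1000, which restrains glutamate release in the fly brain, averaged 80.4 ± 16.7 and 80.7 ± 9.31 CPM (SD, n = 3 per strain), with a log2 fold change of -0.07 (95% interval -0.54 to 0.40, edgeR adjusted p = 0.817). Both intervals still hold changes of the size seen in bmo-miR-276-5p and bmo-miR-274-5p. The 2 neuronal miRNAs summed to 120 to 148 CPM in the resistant and 130 to 142 CPM in the susceptible libraries. bmo-miR-133, a muscle miRNA, had 1729 to 3088 and 1765 to 2207 CPM (log2 fold change 0.20, edgeR adjusted p = 0.381), with its highest value in resistant replicate 3. The part of tissue make-up in the differences of the 5 was not tested.

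**Figure D5:**
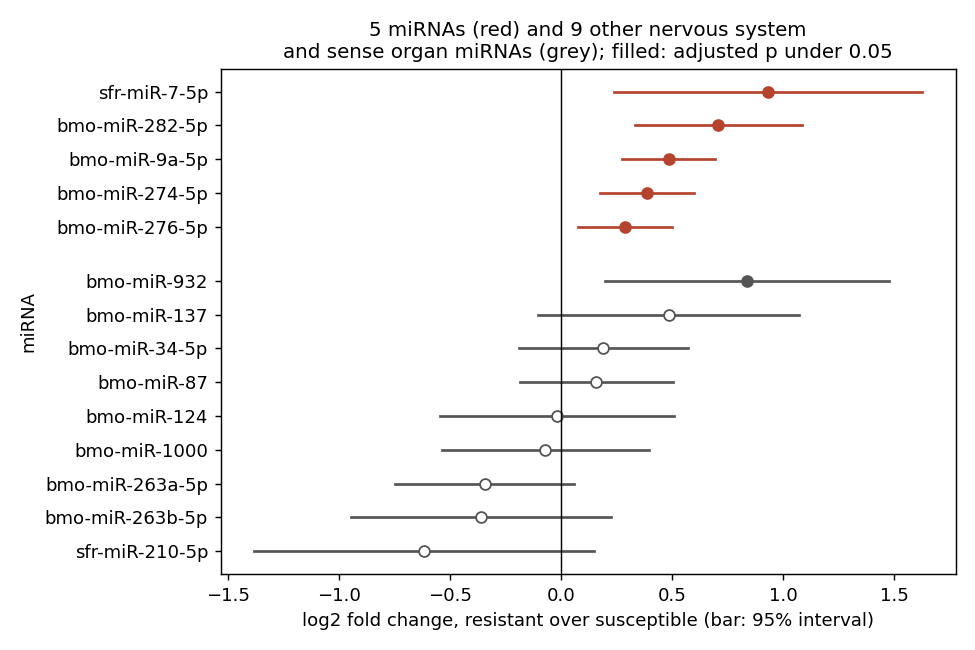
Log2 fold change (resistant over susceptible) with its 95% interval from edgeR for the 5 miRNAs (red) and 9 others known from insect nerves and sense organs (grey), filled where the adjusted p is under 0.05. The 5 lie between 0.29 and 0.93, and of the 9 others only bmo-miR-932 is filled.

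A ratio of counts within a library needs no library scaling, and such ratios were added after seeing the data. Counts of bmo-miR-9a-5p over the summed counts of bmo-miR-124 and bmo-miR-1000 were 104, 95.9 and 102 in the resistant and 62.8, 74.0 and 73.7 in the susceptible libraries, without overlap. The same ratio did not overlap for bmo-miR-274-5p (41.1 ± 5.55 and 30.4 ± 3.73), bmo-miR-282-5p (10.8 ± 2.69 and 6.31 ± 0.798) and sfr-miR-7-5p (0.216 ± 0.0636 and 0.113 ± 0.00812, SD, n = 3 in each group). In bmo-miR-276-5p the ratios overlapped (249 ± 31.7 and 198 ± 25.3, SD, n = 3 each). The share of all sequences without overlap in this ratio was not computed. In CPM that share was 26.8%, with resistant above. The denominator held only 70 to 155 counts per library and its CPM overlapped between the strains, so the ratio largely repeats the CPM. For the 4 without overlap, the exact two-sided permutation test gave p = 0.1, the smallest that 3 libraries against 3 allow, and 0.25 after Benjamini-Hochberg adjustment over 10 ratios. Set against bmo-miR-133 instead, all 5 overlapped, with log2 differences from 0.11 for bmo-miR-276-5p to 0.67 for sfr-miR-7-5p.

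No ratio between members separated the strains. All 10 ratios between members overlapped between the strains, with exact permutation p from 0.2 to 0.9 (two-sided) and adjusted values from 0.556 to 0.9. There were 2.47 ± 0.263 counts of bmo-miR-276-5p per count of bmo-miR-9a-5p in the resistant and 2.82 ± 0.176 in the susceptible libraries (SD, n = 3 each). bmo-miR-9a-5p and bmo-miR-274-5p stood at 2.47 ± 0.247 to 1 and 2.31 ± 0.105 to 1 (SD, n = 3 each), the smallest log2 difference in size among the 10 ratios, at 0.09. The largest was between bmo-miR-276-5p and sfr-miR-7-5p, at -0.56. With 3 libraries a strain the exact permutation test cannot go below p = 0.1, so it could not show a difference in proportion.

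Likeness to other miRNAs was measured as the root mean square difference of centred log2 CPM over the 6 libraries, among the 111 other distinct sequences tested, and it is a description of libraries that share depth and strain. bmo-miR-9a-5p was most like sfr-miR-14-5p (0.06, against a median of 0.35 over all 111), followed by bmo-miR-274-5p (0.10) and bmo-miR-276-5p (0.14). bmo-miR-276-5p was most like sfr-miR-279c-5p (0.06, median 0.31) and bmo-miR-274-5p was most like Spodoptera_mature_04 (0.09, median 0.33). For bmo-miR-282-5p the first places went to Spodoptera_mature_25 and bmo-miR-932 (0.16 each, median 0.49). sfr-miR-7-5p had no close match, with Spodoptera_mature_07 at 0.31 beside a median of 0.58. bmo-miR-252-5p, whose precursors neighbour those of bmo-miR-274-5p, went the other way, with 2220, 2573 and 2223 CPM in the resistant and 2721, 3176 and 2848 CPM in the susceptible libraries. It fell by 0.34 on the log2 scale (standard error 0.12, edgeR adjusted p = 0.0468), and the strains did not overlap.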

How the data were processed

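Reads were 50 bp long. The authors removed adapters and inserts shorter than 18 nt with cutadapt 3.4, used ZJU_Sfru_1.0 as the genome and matched reads to miRBase 22 precursors with miRDeep2. The authors deposited read counts per mature miRNA, RPM (reads per 1000000) and a signal headed as normalized with DESeq2, per library. Counts were used for all values and tests, the deposited RPM for an alternative ratio, and the normalized signal was not used. Columns without a sample numbered 0.

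CPM are counts over the library total, copies included. Tests used edgeR 4.0.16 (R 4.3.3, TMM, filterByExpr, a strain term alone) over all entries, with Benjamini-Hochberg adjustment. Called sequences were counted once per distinct sequence. Folding used RNAfold 2.7.2. Alternatives were DESeq2 1.42.0, 3 other scalings, 2 other filters, copies entered once, a replicate block and leaving out each library. Likeness used a pseudocount of 1, and log2 CPM for the SD used a prior count of 2. Tests were tried on simulated data.

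The members and the lists were chosen with earlier results of these data known. Named miRNAs are the 5 members, the 9 others of the nervous system, the muscle marker, rank neighbours, the nearest precursors and the most alike sequences. RT-qPCR and target genes were not analysed here.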

Additional observations from a re-analysis of the deposited data

How the results depend on the processing

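bmo-miR-9a-5p and bmo-miR-282-5p passed the test in every setting with a test except mapped reads as library sizes, where their log2 fold changes were -0.23 and 0.013. bmo-miR-274-5p lost its call with upper-quartile factors (0.21), at least 10 counts in every library (0.28) and mapped reads (-0.29). bmo-miR-276-5p lost its call with DESeq2 (0.28), TMM factors of 1 (0.31), upper-quartile factors (0.11), no filter (0.18), at least 10 counts (0.17) and mapped reads (-0.42). sfr-miR-7-5p lost it with DESeq2 (0.92), upper-quartile factors (0.76), no filter (0.84), at least 10 counts (0.83) and mapped reads (0.19). The causes were not tested. Leaving out single libraries gave 0.24 to 0.37 for bmo-miR-276-5p, 0.78 to 1.14 for sfr-miR-7-5p, 0.41 to 0.53 for bmo-miR-9a-5p, 0.36 to 0.47 for bmo-miR-274-5p and 0.57 to 0.84 for bmo-miR-282-5p.

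Of the 5 members, 3 passed with DESeq2 (28.6% of all sequences tested), 2 with upper-quartile factors (29.5%), 0 with mapped reads (28.8%), 3 without a filter (28.1%), 2 with at least 10 counts (27.1%) and 3 to 4 without single libraries (16.8% to 25.7%). A count of 2 in 5 is near the share of all sequences. The 40 sequences called in all became 26 with at least 10 counts and 19 to 29 without single libraries (24 without susceptible replicate 1 and 19 without susceptible replicate 2). Without a filter, 14 were higher and 22 lower, and with at least 10 counts 10 and 16. It stays undecided if replicate numbers pair the libraries. Deviations from the strain means had r of 0.04, 0.29 and 0.27 between same-numbered libraries and -0.36 to 0.12 between the others. Resistant replicates 2 and 3 were each most like the susceptible replicate of their number, and resistant replicate 1 was most like susceptible replicate 2. With a replicate block 4 of 5 members and 38 of all sequences passed, and sfr-miR-7-5p had a log2 fold change of 0.90 (edgeR, adjusted p = 0.053). Ratios to bmo-miR-133, added after seeing the data, gave 0.31 for bmo-miR-9a-5p, 0.11 for bmo-miR-276-5p and 0.22 for bmo-miR-274-5p. Depth limits sfr-miR-7-5p most, at 10 to 40 counts per library.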
